A study of Mus musculus with 6 samples.

Results

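Ncr1 was 1 of 5294 genes measured across 6 mouse tissue sections, and it was chosen because its count was far lower in the spleen of a mouse given phenylhydrazine (PHZ) than in an untreated spleen. It encodes NKp46, an activating receptor of natural killer (NK) cells and of innate lymphoid cells related to them. Cells with at least 1 Ncr1 count, called Ncr1-positive here, numbered 5365 of 108338 in the untreated spleen and 478 of 94582 in the PHZ spleen. Because the gene was picked for this contrast, each difference between the spleens given here is a description, carries no test and supports nothing about the pattern that chose it. The level fell but was not lost: 815 Ncr1 counts remained in the PHZ spleen.

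NK cells are lymphocytes that kill infected or altered cells without prior priming and release interferon gamma and chemokines. Besides NKp46, mouse NK cells of the C57BL/6 strain carry the NK receptor encoded by Klrb1c, whose protein is the classical NK surface marker of this strain, and the activating receptor encoded by Klra8, which recognises a cytomegalovirus protein. They lack the CD3 complex of T cells, which is encoded in part by Cd3d and Cd3e. In the spleen NK cells lie mostly in the red pulp, where macrophages clear old red cells, whereas T and B cells fill the white pulp.

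The sections were 5 µm thick and were imaged with gene-specific probes that locate single RNA molecules (Xenium). Every mouse was wild type, of the C57BL/6 strain per the study's methods, with 1 section per condition: liver of an embryo at embryonic day 14.5 (E14.5) or 13.5 (E13.5), bone marrow at postnatal day 8 (P8) and at 89 weeks, adult spleen without treatment, and spleen after PHZ. PHZ, a chemical that destroys red cells and so causes anaemia, was given into the peritoneum at 40 mg per kg, 2 times a day for 2 days, and the labels name no injection for the untreated mouse. The methods describe a vehicle control, so whether the spleen called untreated here came from an injected mouse is unknown, and the sources differ on the exact adult age. The spleens shared a slide, an imaging run and a panel of 477 genes, and the E14.5 liver and P8 marrow lay on another slide of that run. The E13.5 liver and the 89-week marrow were imaged later on a panel of 5050 genes, so their values stand beside the others with no fold. A single section gives the density of a cell type and not its number in the whole organ, and without a second mouse the spread between animals is unknown.

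Depth per section ran from 1384795 to 20952143 gene counts over 5285 to 143810 cells, with a median of 60 to 190 counts per cell. The untreated spleen held 10351683 gene counts (median 84 per cell) and the PHZ spleen 11430388 (median 104 per cell). Of all gene transcripts decoded, 90.5% in the untreated and 70.9% in the PHZ spleen had a quality score of at least 20, the minimum for being counted. At most 6 cell names occurred in any pair of sections, and 1 in both spleens. Intervals below are exact at 95% confidence and cover counting error only.

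The sequence just before an annotated start of Ncr1 is shown because factors of the RUNX family are known regulators of this receptor. These factors shape NK and T cell genes. The same stretch of Klrb1c is shown because its level followed that of Ncr1 most closely over tiles of 100 µm in both spleens. Both are the 250 bases upstream of an annotated start in RefSeq, build GRCm38.p6, printed along the gene's own strand. Capitals mark the letters TGTGGT or their reverse complement ACCACA, a core that RUNX factors bind. The Ncr1 window is chr7:4337465-4337714 on the plus strand and the Klrb1c window chr6:128788642-128788891 on the minus strand.
Ncr1: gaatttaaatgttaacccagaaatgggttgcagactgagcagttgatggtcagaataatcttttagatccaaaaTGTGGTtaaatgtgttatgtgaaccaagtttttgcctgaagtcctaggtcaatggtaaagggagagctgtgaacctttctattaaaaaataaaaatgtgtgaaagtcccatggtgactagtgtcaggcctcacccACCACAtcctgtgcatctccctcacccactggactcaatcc
Klrb1c: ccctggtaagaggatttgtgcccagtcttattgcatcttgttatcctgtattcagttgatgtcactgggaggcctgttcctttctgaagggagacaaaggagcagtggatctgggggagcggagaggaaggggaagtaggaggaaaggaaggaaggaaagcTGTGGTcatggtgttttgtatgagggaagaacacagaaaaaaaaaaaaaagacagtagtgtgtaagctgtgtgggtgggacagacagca
The Ncr1 window held 2 matches, which began 176 and 41 bases before the start, and the Klrb1c window held 1, which began 89 bases before it. RefSeq also gives Ncr1 another start, with the window chr7:4337474-4337723, and the same matches began 185 and 50 bases before that start. Among 32851 windows of this length, 14% held at least 1 match on either strand. AGGAAG (reverse CTTCCT), a core of ETS factors, was searched too: 3 matches lay in the Klrb1c window, 0 in that of Ncr1, and 29.5% of all windows held 1 or more. The windows of Klra8 held neither motif, and the T-box core GGTGTGA (reverse TCACACC), present in 3.33% of all windows, was in none of these windows. A match describes letters and not a bound site, and no readout here measured binding.

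The untreated spleen held by far the most Ncr1. It gave 14057 counts, or 1358 CPM (interval 1336 to 1381), where CPM is the count divided by the gene counts of the section and multiplied by 1000000. The P8 marrow gave 704 counts (109 CPM, 101 to 118), the PHZ spleen 815 (71.3 CPM, 66.5 to 76.4) and the E14.5 liver 339 (16.2 CPM, 14.5 to 18.0). On this panel the order of levels was thus untreated spleen, P8 marrow, PHZ spleen, E14.5 liver, and no neighbours in it had overlapping intervals. These levels include stray counts: cells rich in the red-cell gene Slc4a1 and without the other NK receptors held 173 of the 704 Ncr1 counts at P8 and 62 of the 815 after PHZ, so the order of that pair is not read as an order of NK cells. On the larger panel the 89-week marrow gave 877 counts (67.2 CPM, 62.8 to 71.8) and the E13.5 liver 2 counts (1.44 CPM, 0.175 to 5.22). For comparison, the highest of the negative control probes gave 77 counts in the untreated spleen, 76 in the PHZ spleen, 40 in the P8 marrow, 105 in the E14.5 liver, 18 in the 89-week marrow and 1 in the E13.5 liver. The E13.5 count was therefore close to that background.

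**Figure D1:**
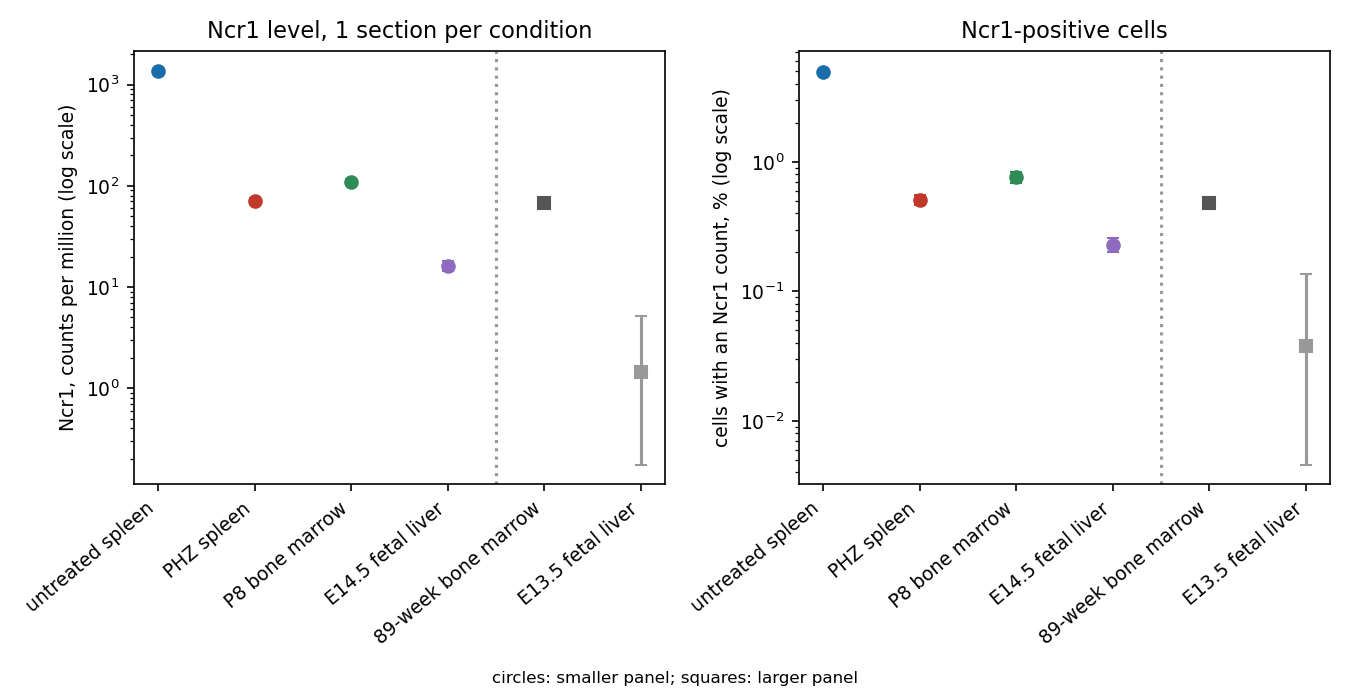
Ncr1 in each section as CPM (left, log scale) and as the percentage of cells with at least 1 count (right, log scale), 1 section per condition; bars are exact 95% intervals for counting error and are often smaller than the symbol. Circles are the panel of 477 genes and squares that of 5050 genes, and the untreated spleen lies highest at 1358 CPM and 4.95% of cells.

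Ncr1-positive cells made up 4.95% of the untreated spleen (4.82 to 5.08), 0.505% of the PHZ spleen (0.461 to 0.553), 0.764% of the P8 marrow, 0.229% of the E14.5 liver and 0.479% of the 89-week marrow. Per area this was 1148 such cells per square millimetre in the untreated spleen and 67.8 in the PHZ spleen. Most positive cells held a single count: 2779 of 5365 in the untreated spleen and 337 of 478 in the PHZ spleen. Cells with 5 or more counts numbered 995 in the untreated spleen and 33 in the PHZ spleen, with 18 and 9 counts in the richest cell, and those cells held 49.7% and 24.1% of all Ncr1 counts. Only 27 such cells were found in the P8 marrow, 5 in the E14.5 liver and 3 in the 89-week marrow.

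A single Ncr1 count was weak evidence for an NK cell. Among cells with at least 5 counts of Slc4a1, the red-cell anion exchanger, and without Klrb1c or Klra8, which should not make NKp46, 2.57% in the untreated spleen (median depth 165 counts) and 0.156% in the PHZ spleen (147 counts) still held an Ncr1 count. In the E14.5 liver this background share was 0.224%, next to 0.229% for all cells. These shares had to be close, since the Slc4a1 class held 90788 of the 117329 cells. It also held 203 of the 269 Ncr1-positive cells, so a single count in the fetal liver is not read as an NK cell. Klrb1c or Klra8 was nonetheless present in 5 of 6 fetal liver cells with 3 to 4 Ncr1 counts and in 4 of 5 with 5 or more. In the P8 marrow the share in the Slc4a1 class was 0.657%, next to 0.764% for all cells. Of untreated cells with 1 count, 36.5% had a cell of 5 or more counts within 15 µm, against 11.8% of cells with no count. After PHZ the shares were 3.56% and 0.399%. An NK identity is therefore read only from cells with several counts. With every cell thinned to 50 counts, and shallower cells left out, 3.83% of untreated and 0.334% of PHZ cells were Ncr1-positive.

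The other NK receptors rose step by step with the Ncr1 count of the cell. In the untreated spleen, Klrb1c or Klra8 was present in 10.2% of cells with no Ncr1 count, 43.5% with 1, 82.5% with 2, 94.6% with 3 to 4 and 99.3% with 5 or more. In the PHZ spleen the shares were 4.16%, 38.3%, 89.8%, 91.8% and 100%, the last being all 33 cells. The curves of both spleens lay close together, so a cell rich in Ncr1 was marked by the other NK receptors after PHZ as before it. In the P8 marrow 25 of 27 cells with 5 or more counts had 1 of these receptors.

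**Figure D2:**
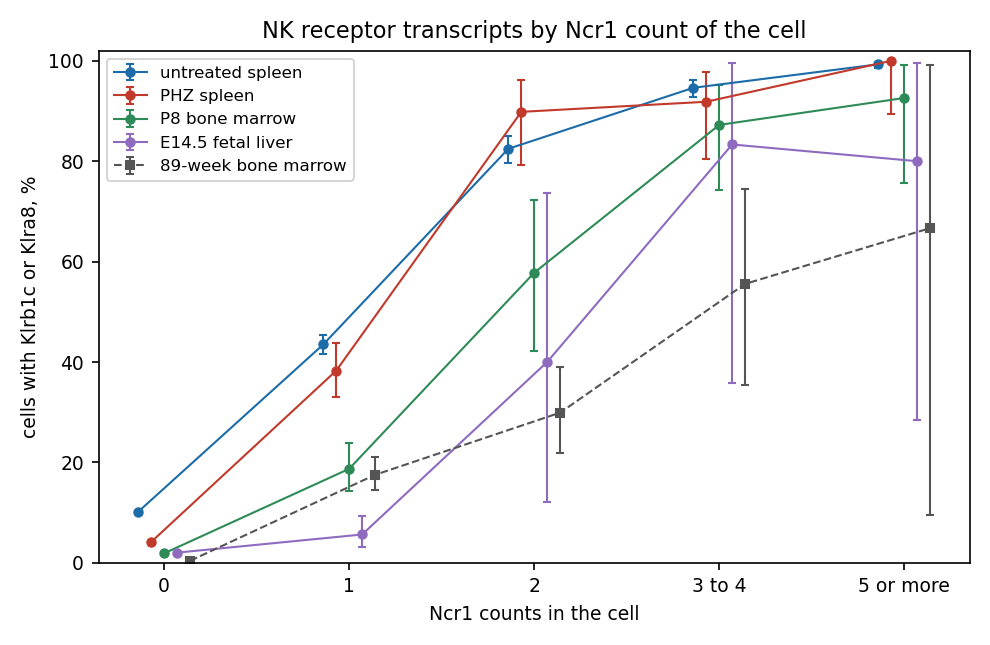
Percentage of cells with at least 1 count of Klrb1c or Klra8 (vertical axis) by the number of Ncr1 counts in the same cell (horizontal axis), in 5 sections, with exact 95% intervals. Both spleens run from 10.2% and 4.16% without Ncr1 to 99.3% and 100% at 5 or more Ncr1 counts.

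The kind of receptor differed more. Among cells with at least 2 Ncr1 counts, 62.0% in the untreated spleen (interval 60.1 to 63.9, 2586 cells) held both Klrb1c and Klra8, and 26.3% Klrb1c alone. After PHZ 45.4% (37.0 to 54.0, 141 cells) held both and 47.5% Klrb1c alone. Klra8 alone was seen in 4.33% of these untreated cells and in 0 of 141 PHZ cells. Klra8 transcripts reached a quality score of 20 in 91.3% of untreated and 59.1% of PHZ cases, against 90.6% and 73.5% for Klrb1c. The part of this in the receptor shares was not tested.

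Among the 10 genes with the highest ratio of CPM in Ncr1-positive over other cells, with Ncr1 left out of the totals, were Klra8 (25.7), Klrb1c (18.2), Ccl4 (7.42), Ccl3 (7.07), Ccl5 (4.298), Ifng (3.82), Ccr2 (3.46), Itgam (2.33) and Pdgfb (2.24). Ccl3, Ccl4 and Ccl5 encode chemokines that NK cells release, Ccr2 encodes a chemokine receptor, Ifng encodes interferon gamma, and Itgam encodes the CD11b integrin chain that maturing NK cells gain. The Ccl5 count was 4.76 per positive and 0.953 per other cell. Of 276 genes with at least 50 counts in these cells, 11 (3.99%) reached a ratio of 2.

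Among the leading 10 genes of the PHZ spleen were Klrb1c (64.6), Klra8 (25.4), Ifng (18.8), Ccl5 (12.9), Il2ra (8.52), Ccr2 (5.98), Tnfrsf18 (4.40), Emb (4.12) and Runx2 (3.77). Il2ra encodes the alpha chain of the interleukin 2 receptor, Tnfrsf18 the costimulatory receptor GITR, Emb the membrane glycoprotein embigin and Runx2 a factor of the RUNX family. Il2ra stood at 0.395 per positive and 0.0499 per other cell after PHZ, a ratio of 8.52, whereas in the untreated spleen its ratio was 0.731. Conversely Ccl4 and Ccl3, which followed the receptors in the untreated spleen, had ratios of 2.59 and 1.83 after PHZ. These ratios depend on what the other cells hold, and in the PHZ spleen the other cells had more Ccl3 (0.105 against 0.0196 per cell) and Ccl4 (0.109 against 0.0228 per cell). Of 164 genes ranked there, 21 (12.8%) reached a ratio of 2.

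T cell genes were not raised in the positive cells of the untreated spleen: the ratio was 0.728 for Cd3d, 0.624 for Cd3e, 0.519 for Cd4 and 0.681 for Cd8a, and 0 of 10 T cell genes reached 2, next to 3.99% of the genes ranked. After PHZ the ratios were 3.30, 2.41, 1.69 and 1.30, and 6 of 10 reached 2, next to 12.8% of the genes ranked. These ratios too depend on what the other cells hold. Summed over the T cell list, a positive cell held 3.097 counts in the untreated and 2.211 in the PHZ spleen. The other cells held 3.859 and 1.026 counts per cell. The summed T cell count per positive cell was thus not higher after PHZ. The lists were not filtered on counts, unlike the ranked genes. Cd3d or Cd3e was present in 37.2% of untreated cells with 1 Ncr1 count and 31.9% of those with 5 or more, against 39.7% of cells with none. After PHZ these shares were 24.6%, 36.4% and 11.3%. No gene of the erythroid (13 genes) or macrophage (17 genes) lists reached a ratio of 2 in either spleen, next to 3.99% and 12.8% of the genes ranked. With such low shares and short lists, nothing about these lists is read from that. How much of the Cd3 signal came from neighbouring cells was not tested.

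In the P8 marrow the leading genes included Klrb1c (61.6), Ccl5 (45.5) and Ifng (15.2). The larger panel added genes of the killing machinery at 89 weeks. Gzma, a granzyme, had a ratio of 116, Xcl1, a chemokine, 52.6, Klrk1, the receptor NKG2D, 40.0, Il2rb, a chain of the receptor for interleukins 2 and 15, 31.3, Prf1, perforin, 28.9, and Eomes, a T-box factor of NK cells, 27.3. Of 15 genes measured there from a list of 19 NK genes, 14 had a ratio of 2 or more. Among all genes with at least 20 counts in the positive cells, a minimum that the listed genes did not have to pass, 134 of 1167 (11.5%) did, so these shares are not compared. The exception was Itga1, an integrin chain, at 1.37.

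The fall between the spleens was 19.1-fold for Ncr1 as CPM (interval 17.8 to 20.5), from 1358 to 71.3 CPM, and 9.80-fold for the share of positive cells (8.92 to 10.8). For cells with 2 or more counts the fold of the share was 16.0 and with 3 or more 18.9. Of 472 genes with at least 100 counts over both spleens, 130 (27.5%) were at least 2-fold lower after PHZ and 61 (12.9%) at least 2-fold higher. At least 5-fold lower were 26 genes (5.51%). Among 343 genes with at least 1000 counts the shares were 35.6%, 17.5% and 7.29%. Ncr1 ranked second by fold among the 472. Car3, a carbonic anhydrase abundant in fat and muscle, ranked above it at 34.4-fold, and Pck1 (18.0), Retn (13.8), Coch (11.2), Sostdc1 (9.82), Cd8a (8.54) and Cxcr5 (8.53) followed it. Pck1 is the gluconeogenic enzyme and Retn the hormone resistin, both known from fat tissue, Cd8a marks killer T cells and Cxcr5 is the B cell follicle receptor. Car3 was detected in 1.61% of untreated cells and Retn in 1.06%.

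**Figure D3:**
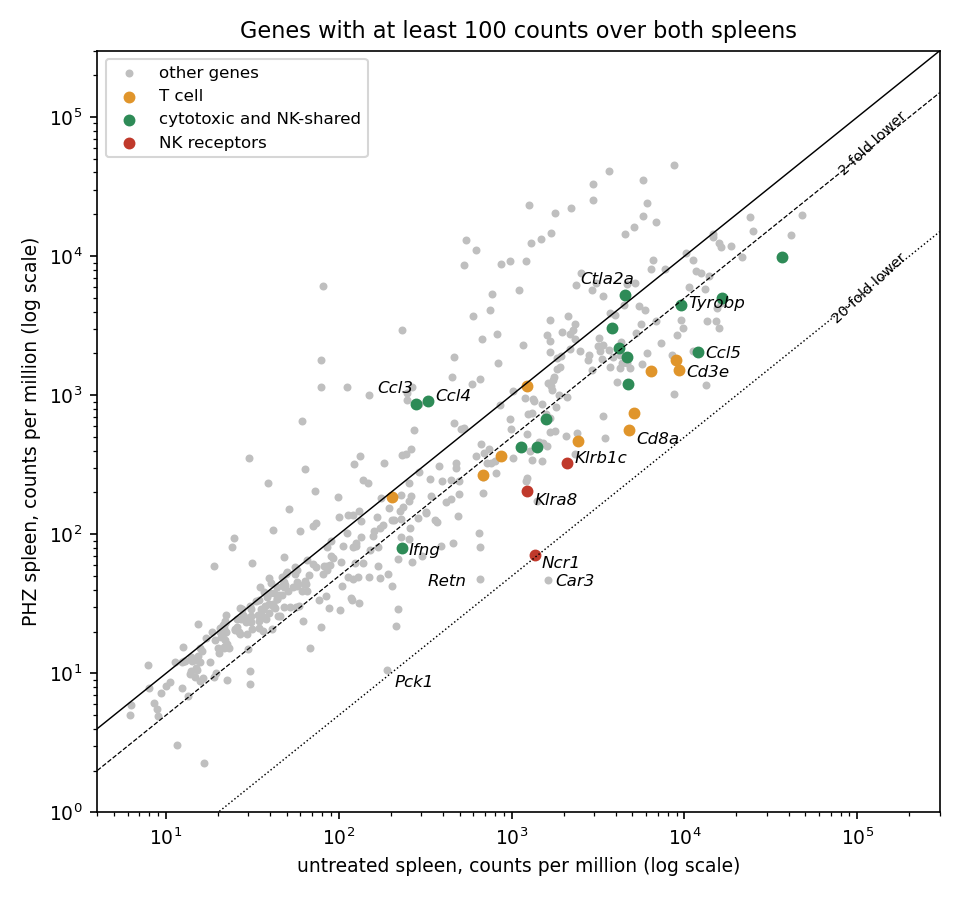
Each point is 1 of 472 genes with at least 100 counts over both spleens, as CPM in the untreated (horizontal, log scale) and the PHZ spleen (vertical, log scale), 1 section each. Lines mark equality (solid), 2-fold lower (dashed) and 20-fold lower (dotted). Ncr1 lies near the dotted line at 19.1-fold, and the other NK receptors lie near some of the T cell genes.

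The other NK receptors fell less. Klrb1c went from 2104 to 327 CPM (6.43-fold, 6.21 to 6.66) and Klra8 from 1228 to 204 CPM (6.02-fold, 5.76 to 6.30). These falls lay within the range of the T cell genes named here: Cd3d fell 6.89-fold, Cd3e 6.14-fold, Cd4 4.34-fold and Cd8a 8.54-fold. Both were above the median of the whole T cell list. Of the T cell list, 8 of 10 genes were at least 2-fold lower, against the 27.5% of all genes, with a median fold of 4.68 for the T cell list and 1.37 for all genes. The erythroid list moved the other way, with 13 of 13 genes at least 2-fold higher and a summed level of 33899 CPM in the untreated and 270692 CPM in the PHZ spleen. That rise takes up part of the total by which CPM is divided, and its part in the falls was not tested beyond the other divisors below. Relative to the summed count of Cd3d, Cd3e, Cd4 and Cd8a, Ncr1 was 3.20-fold lower after PHZ (2.98 to 3.43). Ncr1 stood at 64.5 counts per 100 Klrb1c counts in the untreated and 21.8 in the PHZ spleen.

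Of 15 cytotoxic and NK-shared genes, 10 were at least 2-fold lower and 2 higher, with a median of 2.50-fold lower, against 27.5% lower, 12.9% higher and a median of 1.37-fold lower over all genes. The share of higher genes in the list was thus near that of all genes. Ccl5 fell 5.83-fold, Slamf7, a receptor on NK and other lymphocytes, 3.90-fold, Rac2, a GTPase of blood cells, 3.72-fold, Tnfrsf18 3.34-fold, Cd48, a ligand of the SLAM family, 3.30-fold, and Ifng 2.92-fold. Il2ra (2.64-fold), Emb (2.50-fold), the inhibitory receptor gene Lag3 (2.33-fold) and Tyrobp (2.15-fold), the DAP12 adaptor through which the Klra8 receptor signals, fell less. S100a4, a calcium-binding protein, was 1.92-fold lower, Itgam 1.26-fold lower, and Ctla2a, a protease inhibitor, 1.16-fold higher. Ccl3 was 3.11-fold and Ccl4 2.78-fold higher after PHZ. Both chemokines are also made by macrophages, and 7.56% of PHZ cells held Ccl3 against 1.99% of untreated cells.

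Ncr1 was also lower within cells chosen by other NK receptors. With at least 2 counts of Klrb1c and Klra8 together and none of Cd3d or Cd3e, 2444 cells were found in the untreated spleen (2.26% of cells) and 390 in the PHZ spleen (0.412%). Such a cell held 2.94 Ncr1 counts in the untreated spleen (interval 2.88 to 3.01) and 0.882 in the PHZ spleen (0.791 to 0.980), 3.34-fold less, at median depths of 101 and 88 counts. Ncr1 was present in 74.1% and 35.4% of them. In looser planned classes the fold was larger, at 8.05 with a minimum of 1 count, 6.09 with Klrb1c alone and 10.7 with Klra8 alone. In a stricter planned class, with a minimum of 3, it was 2.38. At low minimums a stray count can pass a cell into the class, so further strict classes, chosen after seeing the data, were set beside these. With at least 5 counts of both receptors together, 1154 untreated and 107 PHZ cells remained, with median depths of 111.5 and 109. Of the receptors that chose them, Klrb1c stood at 5.20 and 5.32 per cell and Klra8 at 4.25 and 1.97, so the classes were not alike in Klra8. In these Ncr1 was 4.78 against 2.13 per cell, 2.24-fold lower (1.97 to 2.57), and was present in 95.8% against 72.0% of cells. With at least 3 counts of Klrb1c alone, the remaining NK receptors being free to vary, Ncr1 was 4.65 in 1210 untreated and 1.68 in 162 PHZ cells (2.77-fold lower, 2.45 to 3.14), and Klra8 3.39 against 1.18 (2.88-fold lower, 2.49 to 3.34). The number of receptor-bearing cells and the Ncr1 count per such cell were thus both lower in the PHZ section. The fold of the count per cell fell as the class became stricter. Decoding differed by gene: a quality score of 20 was reached by 84.8% of untreated and 55.0% of PHZ Ncr1 transcripts. For Klrb1c the shares were 90.6% and 73.5%, and the part of this in the count per cell was not tested. With every cell thinned to 50 counts before the choice, the strict classes lay closer together. At 5 or more receptor counts Ncr1 was 2.45 in 534 untreated and 1.33 in 33 PHZ cells. At 3 or more of Klrb1c it was 2.28 in 611 and 1.25 in 79 cells.

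**Figure D4:**
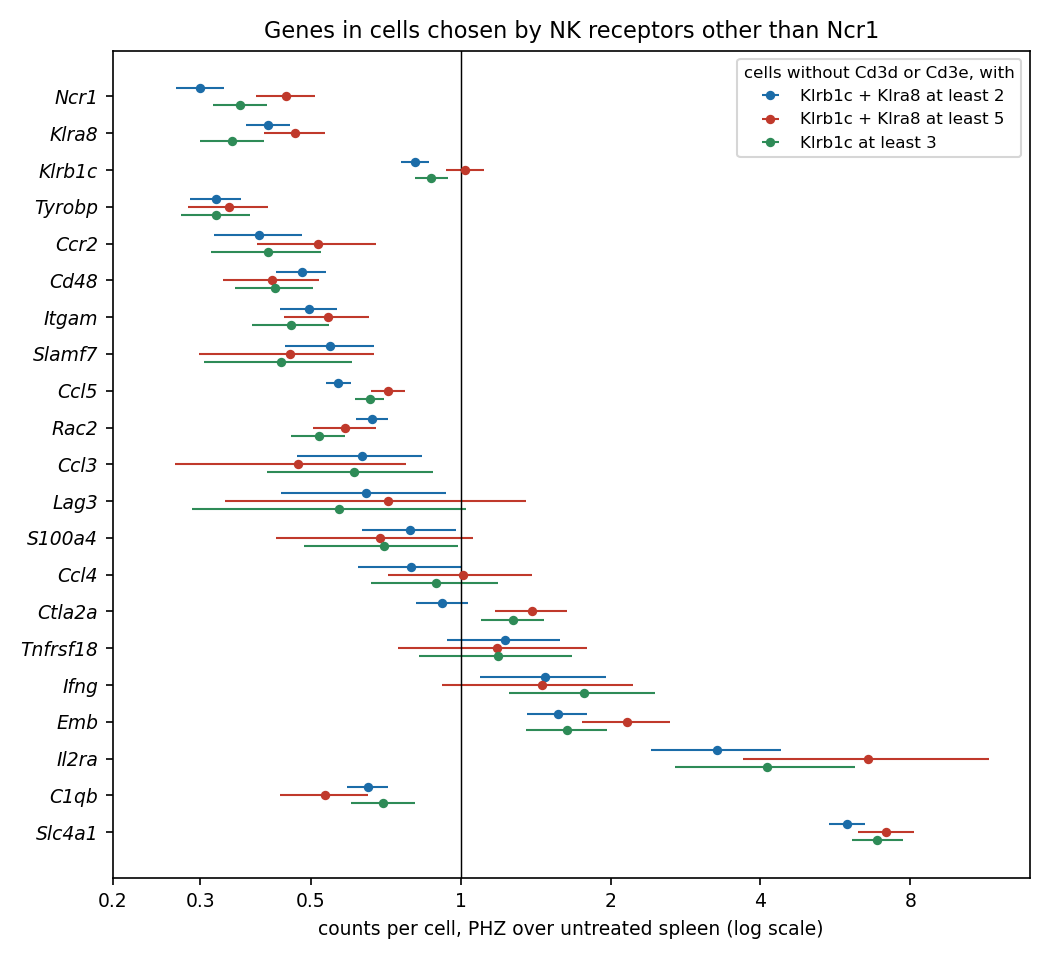
Counts per cell in the PHZ over the untreated spleen (horizontal, log scale) for 21 genes in cells without Cd3d or Cd3e, in 3 classes chosen by Klrb1c and Klra8, with exact 95% intervals for the ratio. Ncr1 lies at 0.2997 to 0.446 in the classes, Klra8 at 0.3475 to 0.4645 and Il2ra at 3.27 to 6.59. Klrb1c lies at 0.810 to 1.02, but it was used to choose the cells of every class, so its ratio is no contrast to that of Ncr1.

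Other genes measured in the same cells differed too, in both directions. In cells with at least 5 receptor counts, Tyrobp was 3.34 per untreated and 1.14 per PHZ cell, Cd48 1.90 and 0.794, Slamf7 0.555 and 0.252, Itgam 1.88 and 1.02, Ccr2 1.03 and 0.533, Rac2 3.20 and 1.87, and Ccl5 8.81 and 6.29. Ccl3 was 0.317 and 0.150, 2.12-fold lower after PHZ (1.29 to 3.75), although it was higher over the whole PHZ section. Ccl4 (0.380 and 0.383) had a ratio interval that included 1. Il2ra was higher after PHZ at 0.0312 against 0.206 per cell, 6.59-fold (3.69 to 11.5), resting on 36 untreated and 22 PHZ counts. Emb was higher too, at 0.516 against 1.11. Ifng was 0.160 against 0.234, with an interval that included 1 here. In the class with at least 3 Klrb1c counts it was 0.157 against 0.278, 1.77-fold higher (1.25 to 2.46). The share of cells with Ifng was not higher after PHZ, at 13.1% against 11.7% in that class. With at least 5 receptor counts it was 13.4% against 12.15%. The intervals take each transcript as independent, so counts gathered in few cells make them too narrow. Lower Ncr1 was thus seen beside lower Tyrobp and Itgam and higher Il2ra and Emb in the same cells. These are values of chosen genes, and no share over all genes was computed in this class. Transcripts of neighbours were present in them too, since Slc4a1 was 0.503 per untreated and 3.60 per PHZ cell, and C1qb 1.82 and 0.972. Their part in the differences was not tested.

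Ncr1 marked the red pulp of the untreated spleen. A cell was called red-leaning where the genes Slc40a1, Spic, Cd163 and Vcam1 had at least as many counts within 40 µm as Cd3d, Cd3e, Cd4, Cd8a, Satb1, Cxcr5 and Cxcl13, and white-leaning otherwise. Among red-leaning cells of the untreated spleen 7.97% were Ncr1-positive (7.73 to 8.20) and among white-leaning cells 2.31% (2.19 to 2.43). For cells with 5 or more counts the shares were 1.59% and 0.329%. White-leaning cells made up 53.3% of all cells, 24.8% of Ncr1-positive cells and 19.1% of those with 5 or more counts, against 69.2% of cells with Cd3e.

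In the PHZ spleen only 12.1% of all cells were white-leaning, and 44.7% of cells with Cd3e. Between the spleens the summed white pulp genes fell 4.99-fold and the summed red pulp genes 1.67-fold. The same rule therefore need not draw the same border in both. In the PHZ section 0.422% of red-leaning cells (0.379 to 0.469) and 1.11% of white-leaning cells (0.928 to 1.32) were Ncr1-positive, the opposite order to the untreated spleen. The order was the same at 2 or more counts, with 0.141% (0.116 to 0.169) of red-leaning and 0.210% (0.135 to 0.312) of white-leaning cells, and their intervals overlapped. The median depth was 114 counts in red-leaning and 58 in white-leaning cells. As CPM, Ncr1 was 60.5 in red-leaning and 225 in white-leaning cells. The other receptors had the same order, with Klrb1c at 276 and 1051 CPM and Klra8 at 147 and 1013 CPM. All 33 cells with 5 or more counts were red-leaning, or 0.0397% of red-leaning cells (0.0273 to 0.0557). The white-leaning cells had 0 of 11424, which allows a share of up to 0.0263% by 3 counts of the total and 0.0323% by the exact interval. The exact intervals overlapped, whereas the 3-count bound lay below the red-leaning interval. Of the 33 cells, 0% were white-leaning, with an exact upper limit of 10.6%, against 12.1% of all PHZ cells. With so few cells and a lower depth in white-leaning cells, no order is read from these values. Among receptor-chosen cells with at least 2 counts, those with Ncr1 were white-leaning in 7.25% (3.53 to 12.9, 138 cells) and those without in 28.2% (22.7 to 34.2, 252 cells), and in the untreated spleen in 16.7% and 29.0%. Most of the richest Ncr1 cells lay in red-leaning surroundings in both sections, as did most cells of the PHZ section.

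Over 462 tiles of 100 µm in the untreated spleen, the genes whose CPM followed that of Ncr1 most closely were Klrb1c (Spearman 0.88), Klra8 (0.84), Kcnj16 (0.68), Hpgd (0.65) and Spic (0.64). Spic is the transcription factor of red pulp macrophages, Hpgd an enzyme that degrades prostaglandins and Kcnj16 a potassium channel. Cd3e stood at -0.27, Cd4 at -0.46 and C3, a complement component, lowest at -0.66. The tiles share 1 section, its depth and its white and red pulp, so these values describe a layout. In 706 tiles of the PHZ spleen Klrb1c again ranked first (0.54), whereas Cd3e (0.24), Cd4 (0.24) and C3 (0.19) had the opposite sign to the untreated spleen. Ncr1 counts were sparse there, and these weak values are given only beside those of the untreated section.

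**Figure D5:**
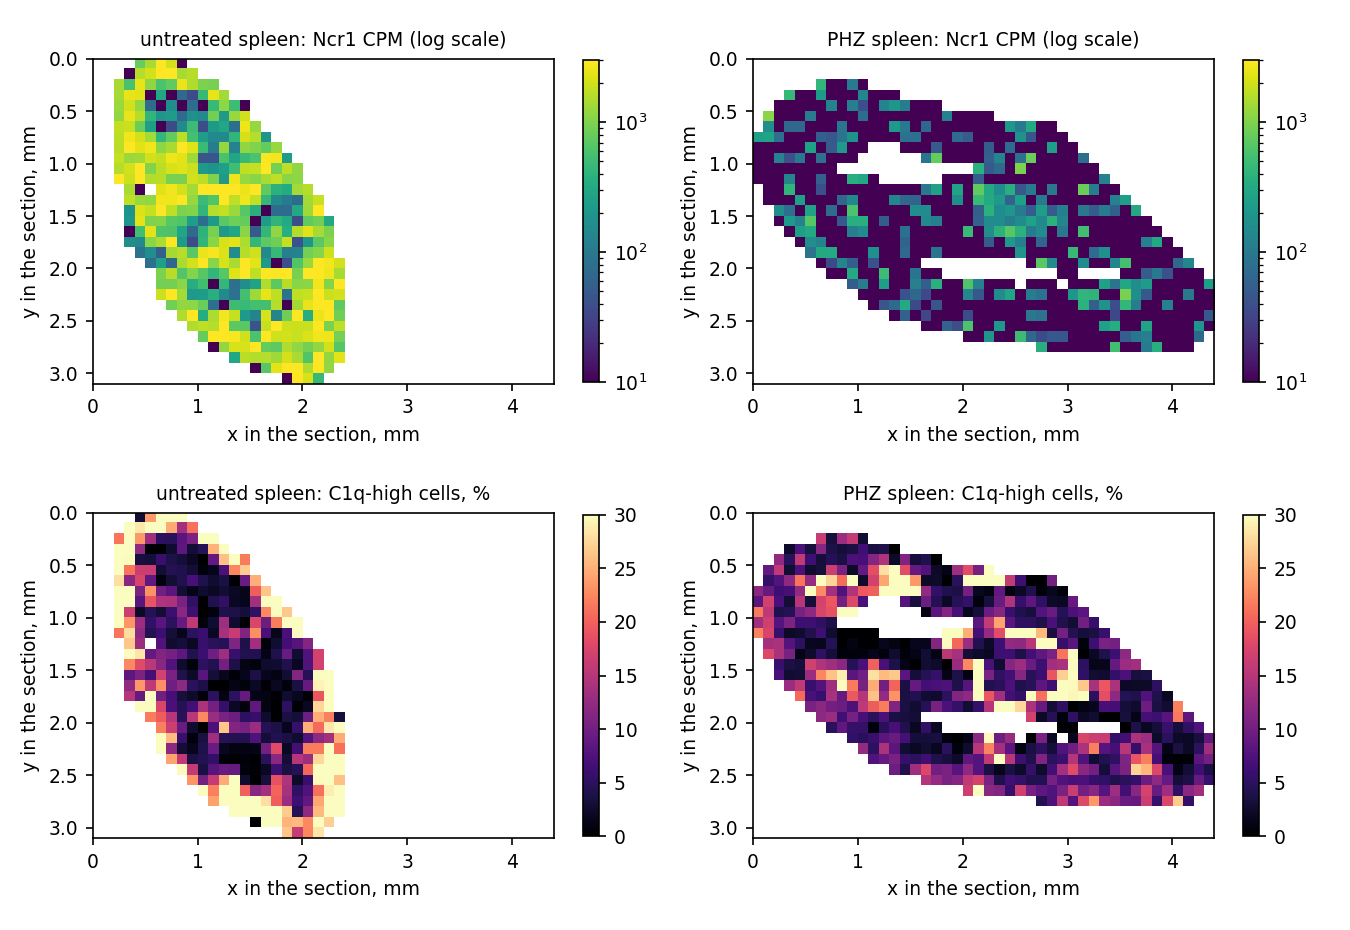
Maps of both spleen sections in tiles of 100 µm with at least 20 cells, with position in mm on both axes: Ncr1 as CPM on a log color scale (top, tiles under 10 CPM drawn at 10) and the percentage of cells with a summed C1qa, C1qb and C1qc count of 10 or more, called C1q-high (bottom, values over 30% drawn at 30%). In the untreated section Ncr1 is low in islands that are also low in C1q-high cells, and in the PHZ section most tiles hold little or no Ncr1.

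The low level after PHZ was spread over the section. Over 26 imaging fields of the PHZ spleen Ncr1 ran from 22.8 to 143 CPM with a median of 63.3, and over 19 fields of the untreated spleen from 145 to 2559 CPM with a median of 1325. The lowest untreated field held only 2 Ncr1 among 13792 transcripts, and the next lowest stood at 750 CPM. In squares of 200 µm with at least 200 cells the ranges overlapped. They were 103 to 3352 CPM in 114 untreated and 0 to 426 CPM in 171 PHZ squares, of which 34 held no Ncr1. How other genes were spread over fields or squares was not compared. The highest PHZ field was also the highest for Cd3e (7415 CPM), Klrb1c (864.8 CPM) and Klra8 (794.9 CPM) and had the highest share of transcripts with a score of at least 20 (77.7%, against a median of 70.5% over fields). The part of decoding quality was not tested. Fields of 1 section are not replicates.

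Position relative to C1q-high cells was the last question. C1qa, C1qb and C1qc encode the chains of complement C1q and are made by macrophages. The C1q-high cells numbered 12060 (11.1%) in the untreated and 9045 (9.56%) in the PHZ spleen. The median distance to the nearest other C1q-high cell in the untreated spleen was 13.4 µm from any cell, 9.61 µm from Ncr1-positive cells, 8.78 µm from those with 5 or more counts and 15.6 µm from cells with Cd3e. Within 40 µm, 15.2% of the neighbours of Ncr1-positive cells were C1q-high against 9.58% for all cells. In red-leaning surroundings the medians were 8.29 µm for Ncr1-positive and 8.42 µm for all cells, a smaller gap than over the whole section. In white-leaning surroundings they were 19.9 µm for Ncr1-positive cells, 18.6 µm for those with 5 or more counts and 22.3 µm for all cells.

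In the PHZ spleen the corresponding medians were 15.7 µm for all cells, 14.98 µm for Ncr1-positive cells, 20.01 µm for the 33 richest cells and 13.2 µm for cells with Cd3e. Of the neighbours of Ncr1-positive cells 8.13% were C1q-high, against 8.75% for all cells, and 22.1% held at least 5 Slc4a1 counts, against 35.4%. For the 33 richest cells these shares were 6.56% and 36.2%. Ncr1-positive cells there were themselves C1q-high in 5.02% of cases, against 9.56% of all cells, and in the untreated spleen in 14.4% against 11.1%. The median of Ncr1-positive cells was 3.78 µm below that of all cells in the untreated section and 0.762 µm below it after PHZ, and for cells with 2 or more Ncr1 counts after PHZ it was 0.866 µm above. The untreated gap depended on the C1q minimum, with a difference of -0.50 µm at 3 counts and -8.73 µm at 20. In the other sections the medians for Ncr1-positive and all cells were 33.4 and 42.7 µm at P8, 24.6 and 24.4 µm at E14.5 and 83.8 and 91.1 µm at 89 weeks.

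Ncr1-positive cells also lay near each other. The nearest other Ncr1-positive cell was at a median of 6.77 µm from an untreated Ncr1-positive cell, against 17.7 µm from any cell, and at 34.1 against 61.8 µm in the PHZ spleen. Of untreated cells with Ncr1, 98.3% had another within 40 µm, against 87.8% of all cells. In the PHZ spleen the shares were 56.5% and 29.5%. All of these shares depend on how dense Ncr1-positive cells were in the section. Since a single count can spill from a rich neighbour, these distances are given with no reading of contact.

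The single molecules behind the counts were decoded less surely after PHZ. Of Ncr1 transcripts decoded, 84.8% of 16638 in the untreated and 55.0% of 1515 in the PHZ spleen reached a quality score of 20, against 90.5% and 70.9% of all genes. Klrb1c stood at 90.6% and 73.5%, and Klra8 at 91.3% and 59.1%. On the other slide of that run the Ncr1 share was 49.6% in the E14.5 liver and 50.7% in the P8 marrow, against 81% and 74.2% of all genes. Those sections held 339 and 704 Ncr1 counts, stray ones among them. The share of counted Ncr1 transcripts over a nucleus was 75.2% and 78.2%, against 58.9% and 51.0% of all genes. With every decoded transcript kept, whatever its score and whether or not it lay in a cell, Ncr1 was 15.7-fold lower (14.9 to 16.5). Molecules that were not decoded are absent from this value too, and the part of decoding quality in the fall was not tested.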

How the data were processed

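Each section was deposited by the authors as raw counts, the transcripts of a gene assigned to a cell, with the position of each cell; the file headers name Xenium Onboard Analysis 1.7.1.0 for the panel of 379 predesigned and 98 custom genes, and 3.1.0.4 for that of 5006 and 44, whereas the methods name Space Ranger. For 4 sections the authors also deposited single transcripts with a quality score per transcript. Counts were used as deposited, with all cells kept and no doublet caller, and were divided by the section's gene total (CPM). Ratios of counts have exact conditional binomial intervals, levels exact Poisson intervals and shares exact binomial intervals, at 95%. Thinning drew 50 counts from each cell of at least that depth: 16939 untreated and 14740 PHZ cells fell below it. With 1 section per condition no test was possible. The gene, the gene lists and the classes of cells were chosen with earlier results of these data known.

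Named genes were Ncr1, all of the NK receptor and cytotoxic lists, Cd3d, Cd3e, Cd4 and Cd8a, the leading 10 by ratio in each spleen (at least 50 counts), the 5 with the largest fall and the 5 beside Ncr1, and the 5 most correlated over tiles (at least 1000 counts). One named gene is not reported here. Scripts were tested on simulated counts. Alternatives changed the divisor, the count, quality and C1q minimums, the depth and the class of cells. Python 3.11.15 with numpy 2.4.6, scipy 1.17.1, pandas 2.3.3 and matplotlib 3.10.9 was used.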

Additional observations from a re-analysis of the deposited data

How the results depend on the processing

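No paired analysis was possible because each condition has 1 section. Ncr1 was lower in the PHZ spleen under every divisor and filter tried. Against 19.1-fold by CPM, the fold was 15.1 per cell, 26.04 per area, 3.20 by the total of Cd3d, Cd3e, Cd4 and Cd8a, 15.9 over nuclei only, 17.1 with a score minimum of 30 and 15.7 with neither a quality minimum nor assignment to a cell. The fold of the share of positive cells, 9.80, was 16.0 at 2 or more counts, 18.9 at 3 or more and 11.4 after thinning. Per receptor-chosen cell the fold of 3.34 was 8.05 at a minimum of 1 count, 2.38 at 3, 6.09 with Klrb1c alone, 10.7 with Klra8 alone and 2.43 after thinning. In classes chosen after seeing the data it was 2.24 at 5 or more counts and 2.77 at 3 or more of Klrb1c.

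The median distance of Ncr1-positive cells to a C1q-high cell, minus that of all cells, was -3.78 µm in the untreated spleen. It was -0.50, -1.25 and -8.73 µm with C1q minimums of 3, 5 and 20, -4.38 µm for 2 or more Ncr1 counts and -4.47 µm with C1q-high cells left out. In the PHZ spleen it was -0.76 µm, then -0.43, -0.58 and -2.76 µm, turned to 0.87 µm for 2 or more Ncr1 counts, and was -1.25 µm with C1q-high cells left out. The cause was not tested. After thinning, and for 2 or more Ncr1 counts, the ratios in the untreated spleen were 20.2 and 30.7 for Klrb1c, 28.0 and 44.0 for Klra8 and 4.92 and 6.50 for Ccl5. After PHZ they were 71.2 and 128 for Klrb1c, 29.1 and 53.0 for Klra8 and 13.6 and 23.4 for Ccl5. With 1 mouse per condition, counting error is the only error known, and the spread between mice, the section's place in the organ and the lower decoding quality after PHZ cannot be told apart from treatment.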

Other observations

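Of 13 genes of cytokines and interferon responses that act on or follow NK cells, 6 were at least 2-fold lower after PHZ and 2 at least 2-fold higher, with a median of 1.84-fold lower, against 27.5% lower, 12.9% higher and a median of 1.37-fold lower over all 472 genes. The share of higher genes was near that of all genes, and no direction is read from the list. Psmb8, an immunoproteasome subunit, stood at 15469 CPM in the untreated and 4264 CPM in the PHZ spleen. The interferon-induced GTPases Gbp5 (4655 and 1706 CPM) and Gbp2 (4331 and 1696 CPM) were lower too, as was Il18, a cytokine that activates NK cells (3837 and 1869 CPM). Higher after PHZ were Rsad2, an antiviral gene induced by interferon, at 1476 and 13218 CPM, and Il10, an anti-inflammatory cytokine, at 121.8 and 320.4 CPM. With 1 section per condition these values have no replicate check.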
